A study of Mus musculus with 4 samples.

Results

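Krüppel-like factors (KLFs) are zinc finger transcription factors that bind GC-rich and CACCC-containing DNA and are close relatives of the SP factors. Some members switch genes on through acetyltransferases, and others switch them off through the corepressors CtBP or SIN3. In myeloid cells KLF4 is known for monocyte differentiation and alternative macrophage activation, and KLF2 for restraining inflammatory activation. KLF2 and KLF4 are also known as regulators of the genes with which large peritoneal macrophages (LPMs) engulf apoptotic cells quietly. The 9 KLF genes described here, *Klf2*, *Klf3*, *Klf4*, *Klf6*, *Klf7*, *Klf9*, *Klf10*, *Klf11* and *Klf13*, were chosen by name, and all 9 were present among the 18364 genes of the deposited table.

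LPMs are the resident macrophages of the peritoneal cavity. They were double-sorted as F4/80+ MHCII-negative CD102+ cells from 8-week-old C57BL/6 mice, and 2 bulk RNA libraries were labelled WT and 2 labelled Rxra-KO. Per the methods of the study, the Rxra-KO mice were LysM Cre+ Rxra fl/fl, and the controls were littermates that carried the same floxed alleles without Cre. LysM Cre is expressed from the *Lyz2* locus in myeloid cells, so deletion was not limited to LPMs. The retinoid X receptor RXRα, encoded by *Rxra*, is a nuclear receptor that pairs with other nuclear receptors. The comparison asked how KLF transcripts of adult LPMs differed when *Rxra* was deleted. The study tied *Klf4* and *Klf6* to cell cycle control by qPCR in neonatal LPMs, from mice deleted for both *Rxra* and its relative *Rxrb*. The labels do not say that each library came from a separate mouse. The p-values therefore rest on the spread between these libraries, mostly as shared across genes, and that spread may be technical.

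Reads of the targeted gene were not lower under the Rxra-KO label, but they cannot decide whether part of the gene was deleted. Reads of *Rxra* numbered 20 and 28 in WT and 33 and 77 where the label was Rxra-KO (log2 fold change 0.99, adjusted p = 0.183), and the table gives 1 value per gene, so a deleted exon could not be looked at. All directions are therefore between libraries as labelled. Depth was 652542 and 947372 reads in WT and 629030 and 1047021 reads in Rxra-KO, and the 9 KLFs together took between 0.114% and 0.142% of the reads. Of the 16 LPM markers in the table, 14 were called lower in Rxra-KO and none higher. Their summed value was between 40727 and 43594 in WT and between 20043 and 22136 in Rxra-KO. *Icam2*, which encodes the sorting marker CD102, had values of 1092 and 1301 in WT and of 466 and 539 in Rxra-KO, and *Emr1*, which encodes F4/80, had values of 714 and 545 against 404 and 279. The *Emr1* call was lost without WT replicate 1 (-0.70, adjusted p = 0.340) or Rxra-KO replicate 2 (-0.62, adjusted p = 0.363). Of 15 markers of small peritoneal macrophages and monocytes, 7 were called higher and none lower, with summed values of 10502 and 9058 in WT and of 11437 and 12686 in Rxra-KO. Most of that sum was *Fn1*, which encodes fibronectin and had values of 9950 and 8776 in WT and of 5898 and 5939 in Rxra-KO (-0.66, adjusted p = 0.140). Without it, a choice made after seeing the data, the other 14 markers summed to 553 and 282 in WT and to 5539 and 6748 in Rxra-KO. The part of these marker shifts in the KLF results was not tested. In bulk RNA, fewer cells of a type and less RNA per cell cannot be told apart.

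Promoter sequences are shown for *Klf4* and *Klf6*, the factors that were called, and for *Klf2*, which had lower values in Rxra-KO, so that their upstream DNA can be read beside their values. Each is the stretch of 250 bases before the annotated start in the RefSeq table of GRCm38.p6, written 5′ to 3′ on the strand of the gene. Capitals mark the CACCC box (CACCC) and the GC box (GGGCGG), the elements that KLF and SP zinc fingers are known to bind, and the MEF2 consensus, on either strand. The *Klf4* stretch is chr4:55532476-55532725 on the minus strand, that of *Klf6* is chr13:5861239-5861488 on the plus strand, and that of *Klf2* is chr8:72318812-72319061 on the plus strand.
Klf4: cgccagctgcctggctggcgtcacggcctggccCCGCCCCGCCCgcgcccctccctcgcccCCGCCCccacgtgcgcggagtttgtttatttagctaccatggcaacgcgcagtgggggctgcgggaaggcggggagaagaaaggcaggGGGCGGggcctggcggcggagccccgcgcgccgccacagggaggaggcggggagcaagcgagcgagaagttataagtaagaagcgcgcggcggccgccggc
Klf6: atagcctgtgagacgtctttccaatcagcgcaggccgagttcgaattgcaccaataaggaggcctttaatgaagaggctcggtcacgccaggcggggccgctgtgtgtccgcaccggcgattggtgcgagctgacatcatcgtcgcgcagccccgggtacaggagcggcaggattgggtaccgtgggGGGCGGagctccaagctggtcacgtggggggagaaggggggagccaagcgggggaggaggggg
Klf2: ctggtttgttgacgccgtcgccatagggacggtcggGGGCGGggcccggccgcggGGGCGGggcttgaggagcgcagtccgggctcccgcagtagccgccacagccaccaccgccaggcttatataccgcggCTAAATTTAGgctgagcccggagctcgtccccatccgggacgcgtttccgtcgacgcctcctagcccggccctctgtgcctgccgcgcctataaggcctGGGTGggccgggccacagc

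The *Klf4* stretch held 4 GC boxes, 2 of which shared a base, and 0 CACCC boxes. The nearest GC box began 101 bases before the start. The *Klf6* stretch held 1 GC box, beginning 63 bases before the start, and 0 CACCC boxes. The *Klf2* stretch held 2 GC boxes, 1 CACCC box and 1 match to the MEF2 consensus, which lay 118 to 109 bases before the start. Among 32851 promoter stretches of the same length, a CACCC box was found in 52.0%, a GC box in 32.7% and the MEF2 consensus in 1.69%. Nuclear receptors such as RXR heterodimers are known to bind repeats of AGGTCA. This hexamer was found in 14% of all stretches and in 0 of the 8 KLF stretches that matched, where *Klf3*, *Klf7*, *Klf9*, *Klf11* and *Klf13* were searched as well. The absence concerns these letters in this window only. *Klf10* was not among the matched promoters. GC content was 74.0% for *Klf4*, 64.8% for *Klf6* and 71.2% for *Klf2*, beside a median of 52.4% over all stretches. An E-box (CACGTG), found in 6.02% of all stretches, was present in those of *Klf4*, *Klf6* and *Klf11*.

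*Klf4* and *Klf6* were the 2 KLFs called, both higher in Rxra-KO. The value of a gene is its deposited normalised read count. A call required that limma, fitted on log2(value + 1) over all genes, gave an adjusted p under 0.05 together with a log2 fold change of 0.6 or more in size. By this rule 1.32% of all genes were called higher and 0.969% lower. Among the 4273 genes at least as highly expressed as the lowest KLF, 7.96% were called in either direction, and 2 of 9 KLFs were. No KLF was called lower, and of the other 7 only *Klf13* had an unadjusted p under 0.05. edgeR's quasi-likelihood test and voom also called 2 of the 9 and DESeq2 called 1.

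*Klf4*, a reprogramming factor that can also arrest the cell cycle, had 72 and 139 reads in WT and 229 and 223 reads in Rxra-KO. Its values were 110 and 151 in WT and 346 and 222 in Rxra-KO. Both Rxra-KO libraries lay above both WT libraries. The means were 131 ± 29.4 in WT and 284 ± 87.4 in Rxra-KO (SD of 2 libraries), a fold of 2.17. On the log2 scale the difference was 1.10 (SE 0.25, 95% interval 0.60 to 1.60, adjusted p = 0.00183).

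*Klf6*, a widely expressed activator known from tissue injury and as a tumour suppressor, had 88 and 87 reads in WT and 188 and 196 reads in Rxra-KO. The values were 134 and 94.9 in WT and 284 and 195 in Rxra-KO, again without overlap. Mean values were 114 ± 27.6 in WT and 239 ± 62.7 in Rxra-KO (SD of 2 libraries), a fold of 2.09. The log2 fold change was 1.05 (SE 0.26, 95% interval 0.54 to 1.57, adjusted p = 0.00468). Over the 4 ratios of a Rxra-KO to a WT library, *Klf4* ranged from 1.47 to 3.15 and *Klf6* from 1.46 to 2.99.

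Rxra-KO replicate 1 held the highest value of both genes. Without it the log2 fold changes were 0.78 for *Klf4* (adjusted p = 0.512) and 0.79 for *Klf6* (adjusted p = 0.543), and neither gene was called. *Klf4* was also not called without WT replicate 1 (0.87, adjusted p = 0.165), nor *Klf6* without WT replicate 2 (0.81, adjusted p = 0.315). Within a genotype the 2 libraries differed, for both genes, by more than the counting error of independent reads. The ratio of replicate 1 to replicate 2 in Rxra-KO was 1.56 for *Klf4* (95% exact interval 1.29 to 1.88) and 1.45 for *Klf6* (1.18 to 1.79). The same ratio in WT was 0.723 for *Klf4* (0.536 to 0.968) and 1.41 for *Klf6* (1.04 to 1.92), so the pair did not move together between the WT libraries. These intervals cover only the counting error of independent reads. The reads carry no molecular identifiers, so copies of the same molecule could not be set apart and the intervals may be too narrow.

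**Figure D1:**
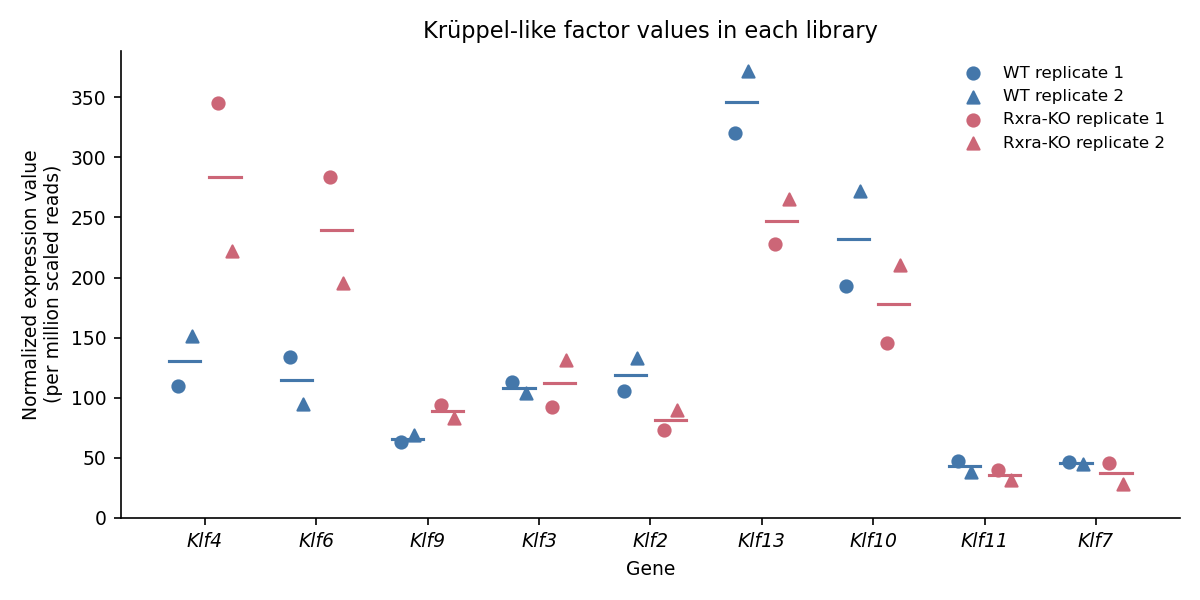
Deposited normalised value (vertical axis, scaled by the authors) of the 9 KLF genes (horizontal axis) in each library. Blue is WT, red is Rxra-KO, circles are replicate 1, triangles are replicate 2 and lines are means of 2 libraries. *Klf4* and *Klf6* are higher in both Rxra-KO libraries than in both WT libraries, and *Klf13* and *Klf2* are lower in both.

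The plot of values by library places the factors side by side. *Klf2*, *Klf9* and *Klf13* also had groups that did not overlap. With *Klf4* and *Klf6* that made 5 of 9 KLFs, where 38.1% of all genes had groups that did not overlap.

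*Klf2*, which keeps lymphocytes quiescent and endothelium unactivated, had 69 and 122 reads in WT and 48 and 90 reads in Rxra-KO. The mean value of 119 ± 19.6 in WT compared with 81.5 ± 11.9 in Rxra-KO (SD of 2 libraries). It was not called, at a log2 fold change of -0.54 (95% interval -1.11 to 0.03, adjusted p = 0.534). *Klf13*, an activator of the chemokine gene *Ccl5* in T cells that can also recruit SIN3, had the highest values of the family in WT. It had 211 and 342 reads in WT and 151 and 267 reads in Rxra-KO. The mean value of 346 ± 36.3 in WT compared with 247 ± 26.6 in Rxra-KO (SD of 2 libraries). The log2 fold change was -0.48 (95% interval -0.95 to -0.02, adjusted p = 0.448), so that the unadjusted interval missed 0 but the gene was not called. *Klf2* and *Klf13* were close in profile over the 4 libraries. Under 16 alternative settings the log2 fold change of *Klf2* stayed between -0.71 and -0.37 and that of *Klf13* between -0.59 and -0.38, and neither was called in any of them.

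*Klf9*, a factor induced by glucocorticoid and thyroid hormones, went the other way. It had 41 and 63 reads in WT and 62 and 83 reads in Rxra-KO, and mean values of 65.9 ± 4.28 and 88.5 ± 7.90 (SD of 2 libraries). The log2 fold change of 0.42 was not called (95% interval -0.18 to 1.02, adjusted p = 0.737).

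*Klf10* and *Klf11*, the TGF-beta-inducible early genes, act mainly as repressors through SIN3. *Klf10* had 127 and 250 reads in WT and 96 and 211 reads in Rxra-KO. Replicate 2 was higher than replicate 1 in both genotypes, with replicate ratios of 0.709 (95% exact interval 0.568 to 0.881) in WT and 0.690 (0.536 to 0.882) in Rxra-KO, and the groups overlapped. The log2 fold change was -0.39 (95% interval -0.88 to 0.10, adjusted p = 0.671). *Klf11* had 31 and 35 reads in WT and 26 and 31 reads in Rxra-KO. Its log2 fold change was -0.27 (95% interval -1.02 to 0.47, adjusted p = 0.921).

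*Klf3*, a repressor that works with CtBP, had 74 and 95 reads in WT and 61 and 132 reads in Rxra-KO. Its mean values were 108 ± 6.50 and 112 ± 27.6 (SD of 2 libraries), and its log2 fold change was 0.03 (95% interval -0.52 to 0.58, adjusted p = 0.994). Its sign was not stable, as it was -0.22 without Rxra-KO replicate 2. *Klf7*, best known from neurons, had 30 and 41 reads in WT and 30 and 28 reads in Rxra-KO. Its log2 fold change was -0.33 (95% interval -1.07 to 0.41, adjusted p = 0.893), and it was 0.01 without Rxra-KO replicate 2. The intervals of *Klf2*, *Klf7*, *Klf9*, *Klf10*, *Klf11* and *Klf13* each reached past 0.6 in size on 1 side, so that a change as large as the threshold lay within them.

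**Figure D2:**
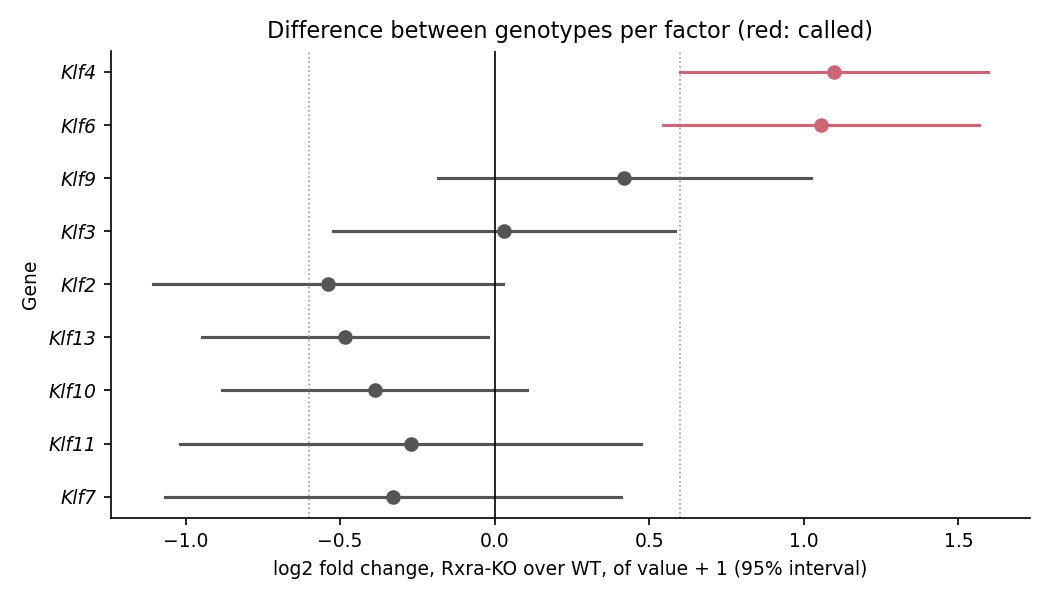
Log2 fold change of Rxra-KO over WT on the log2(value + 1) scale (horizontal axis) for each KLF gene (vertical axis), with its 95% interval from limma. Dotted lines mark the threshold of 0.6 in either direction. The intervals of *Klf4* (0.60 to 1.60) and *Klf6* (0.54 to 1.57), in red, lie wholly above 0, and that of *Klf13* (-0.95 to -0.02) lies wholly below it without passing adjustment.

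The plot of fold changes orders the factors from those higher in Rxra-KO to those lower. The summed value of the 9 factors was 1132 and 1278 in WT and 1348 and 1257 in Rxra-KO, with overlap between the groups. The make-up of this sum is given by the share of each member. *Klf4* was 9.70% and 11.8% of the sum in WT and 25.6% and 17.7% in Rxra-KO. *Klf6* was 11.8% and 7.42% in WT and 21.0% and 15.5% in Rxra-KO. *Klf13* was 28.3% and 29.1% in WT and 16.9% and 21.1% in Rxra-KO. *Klf10* was 17.1% and 21.3% against 10.8% and 16.7%. Shares of 1 sum are not independent, since a rise of some members lowers the share of the others. Shares did not overlap between the genotypes for 8 of the 9 members, all but *Klf3*. The values of *Klf7*, *Klf10* and *Klf11* did overlap, however, so the count of shares does not describe the members' own values. Over all genes, the values of 38.1% did not overlap. For each of the 8 members whose shares did not overlap, the exact permutation test gave a two-sided p of 0.333. That is the smallest p that 2 libraries against 2 allow.

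**Figure D3:**
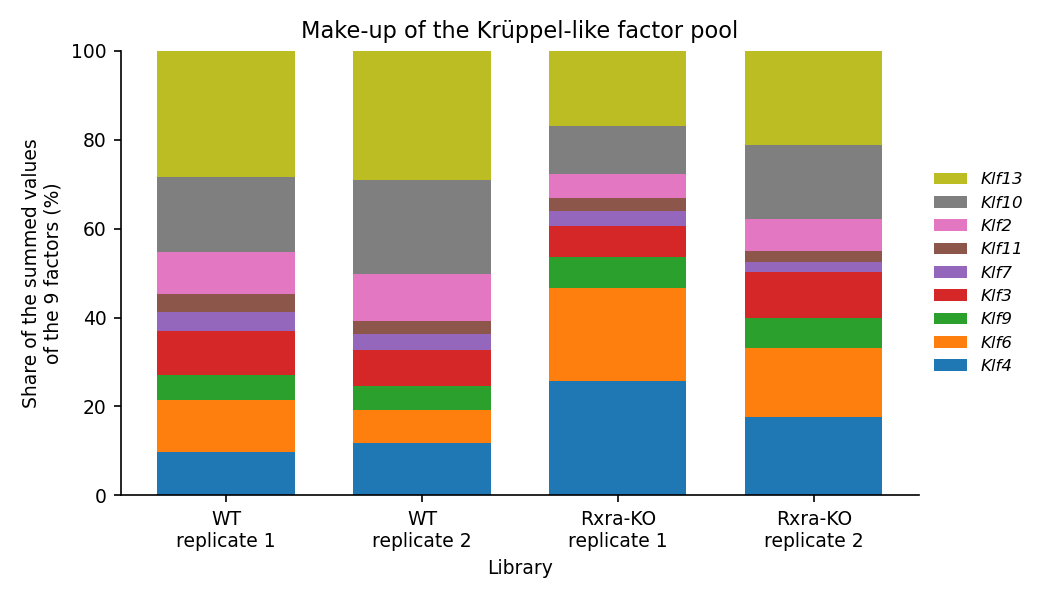
Share of the summed values of the 9 KLF genes (vertical axis, %) taken by each gene in each library (horizontal axis). The *Klf4* and *Klf6* segments at the foot of the bars are 9.70% and 11.8% in WT replicate 1 and 25.6% and 21.0% in Rxra-KO replicate 1, and the *Klf13* segment at the top is smaller in both Rxra-KO libraries.

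The stacked bars show the shift in each library. A ratio of 2 genes within a library does not depend on how libraries are scaled. The ratio of *Klf4* reads to *Klf2* reads was 1.04 and 1.14 in WT and 4.73 and 2.47 in Rxra-KO. That of *Klf6* to *Klf13* was 0.418 and 0.255 in WT and 1.24 and 0.735 in Rxra-KO. Neither ratio overlapped between the genotypes, which follows from the values above, since each sets a factor higher in both Rxra-KO libraries over a factor lower in both. The ratio of *Klf4* to *Klf6* overlapped, at 0.819 and 1.59 in WT and 1.22 and 1.14 in Rxra-KO, as did that of *Klf10* to *Klf11*, at 4.05 and 7.06 in WT and 3.64 and 6.71 in Rxra-KO.

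Levels of different genes were compared per kilobase of the longest coding transcript in the GENCODE annotation, since longer transcripts give more fragments. In WT the level per kilobase was highest for *Klf10*, at 76.4 ± 18.3, followed by *Klf2* at 64.5 ± 10.6, *Klf13* at 54.1 ± 5.67 and *Klf4* at 43.1 ± 9.70 (SD of 2 libraries). None of these 4 differed from the next by more than the sum of the pair's SDs. *Klf6* (27.1), *Klf3* (20.7), *Klf9* (14.7), *Klf11* (10.6) and *Klf7* (5.95) followed. In Rxra-KO *Klf4* came first, at 93.7 ± 28.9 per kilobase, ahead of *Klf10* at 58.4 ± 15.0 and *Klf6* at 56.7 ± 14.8 (SD of 2 libraries). *Klf2* (44.1) and *Klf13* (38.6) came next, and the order of *Klf3*, *Klf9*, *Klf11* and *Klf7* was the same as in WT. Which transcripts the reads came from is not known, so these levels hold for full-length transcripts only.

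By likeness of the 4 log2 values, each centred on its mean, the nearest of 1405 genes with a mean of at least 100 reads to *Klf6* was *Glud1* (Euclidean distance 0.14), followed by *Mtss1*, *Serinc3*, *Scamp2* and *Nrp1*. *Glud1* had values of 502 and 380 in WT and of 988 and 749 in Rxra-KO. The nearest genes to *Klf4* were *Neat1* (0.40), *Ttc3*, *Evi2a*, *Bmp2k* and *Clic4*. *Klf6* stood at rank 66 from *Klf4*, at a distance of 0.68. *Klf2* had closer neighbours, led by *Nsa2* (0.08), *Rps4x*, *Cct2* and *Notch2*, and *Klf13* was the fifth, at 0.11.

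Of the other KLF genes looked for, 7 of 9 were in the table (*Klf5*, *Klf8*, *Klf12*, *Klf14*, *Klf15*, *Klf16* and *Klf17*), and 6 of them had a mean under 10 reads. None was called by limma, edgeR or DESeq2, and 1, *Klf15*, had an unadjusted p under 0.05. *Klf8* had 7 and 5 reads in WT and 12 and 20 reads in Rxra-KO (log2 fold change 1.15, adjusted p = 0.512). *Klf15* had 0 and 2 reads in WT and 5 and 6 reads in Rxra-KO, and *Klf12* had 0 and 3 reads against 3 and 10. Differences of this size were not detectable at this depth. The related SP genes, which bind the same GC boxes, were present as 7 of 9. None was called by limma, edgeR or DESeq2, and *Sp1* alone had an unadjusted p under 0.05. *Sp1* had 29 and 64 reads in WT and 20 and 33 reads in Rxra-KO (-0.78, adjusted p = 0.417), and *Sp3* had 56 and 48 reads against 48 and 94 (0.30, adjusted p = 0.865).

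Partner proteins were next. Calls in this and the later lists stand beside the shares over all genes, 1.32% called higher and 0.969% lower. Among genes at least as highly expressed as the lowest KLF, the share called was 7.96%. A single call in a short list does not set the list apart from these shares. None of 3 genes for CtBP and its adaptors, none of 9 genes for SIN3 and histone deacetylase partners and none of 5 acetyltransferase genes was called by limma, edgeR or DESeq2. At an unadjusted p under 0.05 there were 0, 2 and 0 such genes. The median log2 fold changes were -0.21, 0.06 and 0.09 in that order, beside 0.02 over all genes. The CtBP median rested on genes of few reads. It was 0 when *Fhl3*, with at most 3 reads in each Rxra-KO library, was given the smallest fold that 3 reads allow. *Ctbp2*, the main CtBP transcript here, had values of 92.0 ± 13.4 in WT and 117 ± 17.0 in Rxra-KO (SD of 2 libraries). *Sap18*, a SIN3 complex subunit, had 281 ± 5.82 in WT and 274 ± 1.52 in Rxra-KO (SD of 2 libraries). *Crebbp*, which encodes the acetyltransferase CBP, had 81.9 ± 29.1 in WT and 106 ± 17.2 in Rxra-KO (SD of 2 libraries).

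Ubiquitin ligases are known to set the stability of several KLF proteins, and 1 of 10 was called. *Wwp1*, a ligase that targets KLF2 and KLF5, rose from 91 and 91 reads in WT to 260 and 296 reads in Rxra-KO. Its log2 fold change was 1.53 (SE 0.25, adjusted p = 9.32e-07). The call was lost with quantile normalization (1.47, adjusted p = 0.15). *Fbxw7*, a ligase adaptor for KLF2 and KLF5, had 142 ± 9.65 in WT and 147 ± 1.98 in Rxra-KO (SD of 2 libraries). The median of this list was 0.15, or 0.023 when genes with at most 3 reads in a genotype were given that smallest fold. Protein levels were not measured.

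The kinase ERK5 and the MEF2 factors induce *Klf2* and *Klf4* in endothelium and other cells. Of 12 genes of this route and of its regulators, 1 was called. *Mef2c* had 70 and 117 reads in WT and 132 and 314 reads in Rxra-KO, at a log2 fold change of 1.09 (SE 0.26, adjusted p = 0.00251). The call was lost without Rxra-KO replicate 2 (0.77, adjusted p = 0.429) and without WT replicate 1 (0.96, adjusted p = 0.0981). *Mef2a* had values of 293 ± 21.9 and 314 ± 12.3 (SD of 2 libraries) and was not called. The median of the 12 genes was -0.11. Of the pair these inducers act on, *Klf4* was called higher and *Klf2* was not. The MEF2 consensus was found in the *Klf2* stretch and in none of the other 7 searched.

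TGF-beta signalling induces *Klf10* and *Klf11*. Of 14 genes of the pathway, 2 were called higher and 1 lower. The median was 0.10, or 0.03 when genes with at most 3 reads in a genotype were given that smallest fold. *Tgfb2*, a ligand, fell from 913 and 1118 reads in WT to 495 and 427 reads in Rxra-KO (log2 fold change -1.20, SE 0.22, adjusted p = 1.85e-05). *Tgfbr2*, the type II receptor, rose from 22 and 16 reads to 52 and 102 reads (1.82, SE 0.36, adjusted p = 9.56e-05), a call lost without Rxra-KO replicate 2 (1.64, adjusted p = 0.0831). *Acvrl1*, a type I receptor of the family, had 1 and 3 reads in WT and 17 and 33 reads in Rxra-KO (adjusted p = 0.00108), and the call was lost without either Rxra-KO library (adjusted p = 0.105 and 0.149). *Ski*, an inhibitor of the pathway, had values of 90.9 ± 1.12 and 152 ± 5.20 (SD of 2 libraries) and was not called (adjusted p = 0.195). *Klf10* and *Klf11* themselves were not called.

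Glucocorticoids induce *Klf9*. Of 9 genes of that response, 1 was called higher and 1 lower, with a median of 0.39. *Cebpd* had 31 and 25 reads in WT and 66 and 112 reads in Rxra-KO (1.51, SE 0.33, adjusted p = 0.000608). *Dusp1*, also an immediate early gene, had 55 and 25 reads in WT and 15 and 12 reads in Rxra-KO (-1.45, SE 0.43, adjusted p = 0.0409). The *Cebpd* call was lost without WT replicate 2 (adjusted p = 0.118) or without either Rxra-KO library (0.0814 and 0.0916), and the *Dusp1* call without WT replicate 1 (-0.67, adjusted p = 0.827) or without either Rxra-KO library (0.146 and 0.619). The *Dusp1* call was also lost with DESeq2 (adjusted p = 0.277), with voom (0.0549) and with a filter of value 10 in 2 libraries (0.0820). *Nr3c1*, the glucocorticoid receptor gene, had values of 227 ± 20 and 300.4 ± 53.3 (SD of 2 libraries) and was not called (0.39, adjusted p = 0.632).

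KLF4 and KLF6 are known to slow the cell cycle, in part through *Cdkn1a*, which encodes the inhibitor p21. *Cdkn1a* had 311 and 690 reads in WT and 459 and 733 reads in Rxra-KO, with overlap between the groups. Its log2 fold change was 0.26 (95% interval -0.18 to 0.69, adjusted p = 0.809), and its sign turned without WT replicate 1, at -0.077. Of 22 cell cycle genes tied to KLFs, 2 fell and none rose, and the median was -0.71, or -0.47 when each of the 7 genes whose libraries of 1 genotype held no more than 3 reads was given the smallest fold that 3 reads allow. *Ccnd1*, which encodes cyclin D1, fell from 113 and 213 reads in WT to 13 and 15 reads in Rxra-KO (-3.42, SE 0.33, adjusted p = 3.35e-18). *Ccnb2*, a mitotic cyclin gene, had 20 and 101 reads in WT and 5 and 6 reads in Rxra-KO (-2.84, SE 0.49, adjusted p = 3.61e-06), a call lost without WT replicate 2 (-1.95, adjusted p = 0.201). *Ccnd1* was among the genes that the study discussed from these libraries.

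KLF2 is known to drive trafficking genes of leukocytes. Of 12 such genes, 1 fell and none rose, with a median of -0.16. *Itgb7*, an integrin subunit gene of lymphocyte homing, had 449 and 1523 reads in WT and 139 and 347 reads in Rxra-KO (-1.97, SE 0.23, adjusted p = 1.08e-12). DESeq2 did not call it (adjusted p = 0.0704). *Itgb2*, the most abundant of the list, had values of 2266 ± 75.2 and 1681 ± 198 (SD of 2 libraries) and was not called (-0.44, adjusted p = 0.472).

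KLF4 is known to cooperate with STAT6 in alternative activation. Of 12 genes of this programme, 5 rose and 1 fell, and the median was 0.90. *Mrc1*, the mannose receptor gene, had 63 and 25 reads in WT and 671 and 744 reads in Rxra-KO (4.04, SE 0.26, adjusted p = 2.18e-34). *Retnla*, which encodes RELMα, had 96 and 29 reads against 1055 and 3033 (4.97, SE 0.25, adjusted p = 1.36e-47). *Cd163*, the haemoglobin scavenger receptor gene, had 30 and 34 reads against 1036 and 761 (4.67, SE 0.25, adjusted p = 2.55e-44). These p-values rest mostly on the spread shared across genes. With quantile normalization *Mrc1* (adjusted p = 0.057) and *Retnla* (0.0519) were not called. *Clec10a* also rose (2.80, adjusted p = 1.85e-08), and *Pparg*, with 1 and 0 reads in WT and 24 and 6 reads in Rxra-KO, was called at an adjusted p of 0.0164 but not without Rxra-KO replicate 1 (adjusted p = 0.873) or WT replicate 2 (0.13), nor with voom (0.0659). *Arg1*, a known KLF4 target that encodes arginase, was the gene called lower, with 179 and 245 reads in WT and 37 and 249 reads in Rxra-KO (-1.18, adjusted p = 0.00188). That call was lost with edgeR (adjusted p = 0.0746), with DESeq2 (adjusted p = 1), with a filter of value 10 in 2 libraries (adjusted p = 0.0848) and without Rxra-KO replicate 1 (-0.12, adjusted p = 0.990), the library with the low value. *Stat6* was not called, at values of 77.9 ± 4.15 and 112 ± 4.63 (SD of 2 libraries). *Mrc1*, *Retnla* and *Clec10a* are also markers of small peritoneal macrophages, so this count moves with the 7 of 15 marker genes given above. The log2 fold changes of *Mrc1*, *Retnla* and *Cd163* were all above 4, against 1.10 for *Klf4*. The part of *Klf4* in the changes of these genes was not tested.

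Genes for uptake of apoptotic cells, tied to KLF2 and KLF4 in LPMs, were mixed. Of 22, 2 rose and 1 fell, with a median of 0.19. *Gas6*, a bridging ligand, had 9 and 6 reads in WT and 37 and 22 reads in Rxra-KO (1.72, adjusted p = 0.0382), and *Stab1*, a phosphatidylserine receptor gene, had 44 and 23 reads against 86 and 81 (1.28, adjusted p = 0.00753). Both calls were lost without WT replicate 2 (adjusted p = 0.361 and 0.680) and without Rxra-KO replicate 1 (0.916 and 0.740), and with DESeq2 (0.305 and 0.370), and that of *Gas6* also with voom (0.0633) and with the filter of value 10 (0.0550). *Marco*, a scavenger receptor gene, fell from 1126 and 1266 reads to 137 and 401 reads (-2.41, SE 0.22, adjusted p = 2.29e-19). *C1qc*, the most abundant of the list, had values of 4063 ± 156 and 4661 ± 466 (SD of 2 libraries) and was not called.

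Several KLFs, *Klf2*, *Klf4*, *Klf6* and *Klf10* among them, are known to respond rapidly to stress, including the handling of cells, so immediate early genes were set beside them. Of 26 such genes, 1 was called higher and 1 lower, and 8 had a positive and 18 a negative log2 fold change. The median was -0.35, or -0.18 when genes that low in 1 genotype were given that smallest fold. Their summed value was 634 and 622 in WT and 906 and 574 in Rxra-KO. *Egr2*, the gene called higher, had 25 and 10 reads in WT and 165 and 58 reads in Rxra-KO (2.46, SE 0.37, adjusted p = 4.74e-08), and was not called with DESeq2 (adjusted p = 0.508) or without Rxra-KO replicate 1 (1.42, adjusted p = 0.507). *Nfkbiz* had 71 and 72 reads in WT and 169 and 117 reads in Rxra-KO and missed the threshold (0.90, adjusted p = 0.0564). It was called with edgeR (adjusted p = 0.0201), with the replicate block (0.0139), without WT replicate 1 (0.0474) and without Rxra-KO replicate 2 (1.46, adjusted p = 0.00482). Rxra-KO replicate 1 thus held the highest value of *Egr2*, *Nfkbiz*, *Klf4* and *Klf6*. The summed list was also highest there, at 906, but *Egr2* made up 249 and *Nfkbiz* 255 of that sum. The sum is therefore not separate from these genes, and most genes of the list had a negative log2 fold change. The part of the immediate early response in the *Klf4* and *Klf6* results was not tested.

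**Figure D4:**
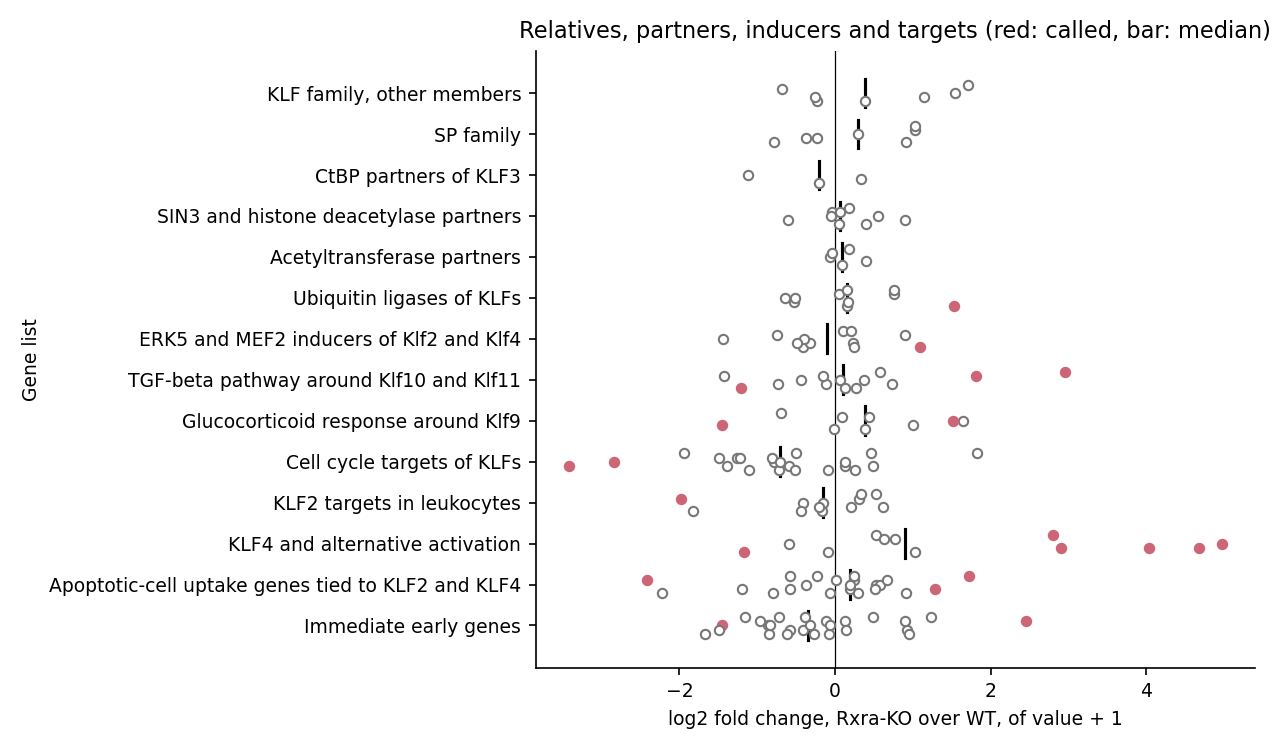
Log2 fold change of Rxra-KO over WT on the log2(value + 1) scale (horizontal axis) for genes of each list (vertical axis). Each point is a gene, red points are called and bars are list medians. The KLF4 and alternative activation list holds 5 genes called higher and 1 lower, and the CtBP, SIN3, acetyltransferase and SP lists hold none.

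The plot of lists sets the genes of each list side by side. Markers of other cells that a peritoneal sort could carry over were examined as well. Not all were present: 8 of 12 B cell, 6 of 11 neutrophil, 5 of 7 eosinophil and 9 of 10 mast cell markers were. So were 8 of 11 mesothelial, 11 of 13 endothelial and fibroblast and 2 of 7 erythroid markers. For T and NK cells 10 of 15 were present, and for dendritic cells 9 of 10. Of the B cell and neutrophil markers present, 6 and 4 had a mean under 10 reads. None of 8 B cell, 6 neutrophil, 5 eosinophil, 9 mast cell, 8 mesothelial, 11 endothelial and fibroblast and 2 erythroid markers was called by limma, edgeR or DESeq2, and 2, 0, 1, 1, 1, 1 and 1 of them in that order had an unadjusted p under 0.05. The summed value of B cell markers was 95.4 and 105 in WT and 119 and 91.4 in Rxra-KO. Within that list *Cr2* had 30 and 53 reads in WT and 37 and 43 reads in Rxra-KO. Neutrophil markers summed to 242 and 257 in WT and to 194 and 258 in Rxra-KO, where *Csf3r*, with 80 and 142 reads against 53 and 129, and *Cxcr2*, with 69 and 82 reads against 59 and 102, were at levels like those of the KLFs. Eosinophil markers summed to 110 and 97.1 in WT and to 86.6 and 98.8 in Rxra-KO, led by *Il5ra* with 59 and 70 reads against 43 and 76. For T and NK cell markers the sum was 121 and 119 in WT and 126 and 90.4 in Rxra-KO. *Cd3e* had at most 4 reads in any library, *Cd3d* had 20 to 25 and *Cd8a* had 28 to 40. Of the 10 genes 1, *Cd2*, was called higher, with 0 and 0 reads in WT and 11 and 6 reads in Rxra-KO (adjusted p = 0.0277), and not called without either WT library (adjusted p = 0.0732 and 0.136). Dendritic cell markers had sums of 82.5 and 75.4 in WT and of 144 and 175 in Rxra-KO. Of these 9 genes 1 was called, *Cd209a*, which had 14 and 13 reads in WT and 43 and 80 reads in Rxra-KO (1.95, adjusted p = 0.000128) and was not called without Rxra-KO replicate 2 (1.81, adjusted p = 0.0755). *Zbtb46*, a defining dendritic cell gene, had 1 and 8 reads in WT and 2 and 10 reads in Rxra-KO. The part of these genes in the KLF results was not tested.

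**Figure D5:**
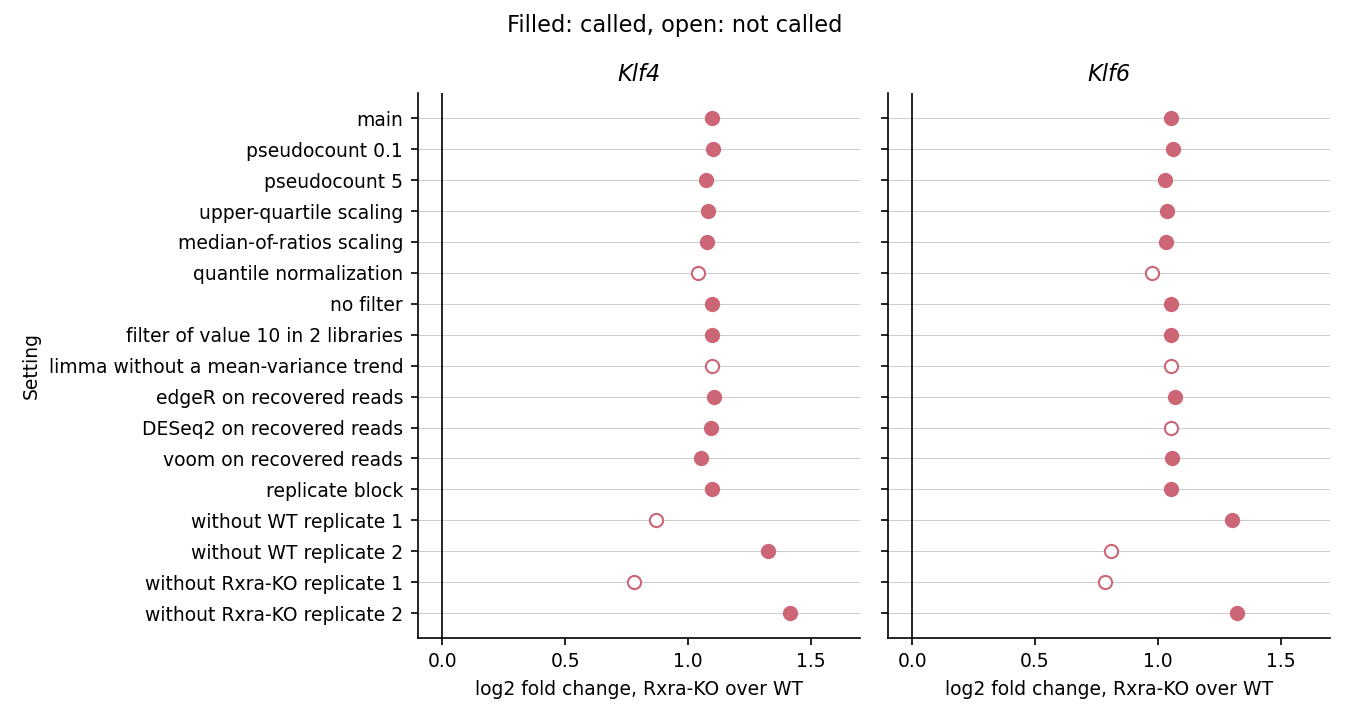
Log2 fold change of Rxra-KO over WT (horizontal axis) of *Klf4* and *Klf6* under the reported fit, named main, and 16 alternatives (vertical axis). Filled points were called and open points were not. The fold change stays between 0.78 and 1.42 for *Klf4* and between 0.79 and 1.32 for *Klf6*, and both lose the call without Rxra-KO replicate 1.

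The plot of settings summarises how firm the 2 calls were. Both genes were higher in Rxra-KO under each of the 16 alternatives, with an adjusted p between 8.64e-05 and 0.583 for *Klf4* and between 0.000422 and 0.592 for *Klf6*. edgeR's quasi-likelihood test on the recovered reads called both, with an adjusted p of 0.00164 for *Klf4* and 0.00416 for *Klf6*, whereas DESeq2 called *Klf4* (adjusted p = 0.0410) and not *Klf6* (adjusted p = 0.0707).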

How the data were processed

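RNA of sorted LPMs was measured in 2 WT and 2 Rxra-KO libraries, grouped and numbered by sample title. Per the methods of the study, libraries were made with a low-input full-length cDNA kit without molecular identifiers. The submitters' notes name kallisto 0.43.0, limma and GRCh38, a human build, for these mouse libraries, so the reference used was not settled. The study excluded samples that did not cluster with their group, which can narrow the spread within groups. The p-values, calls and counts of groups without overlap given here hold for libraries left after that choice. The deposited signal, made by the authors, was (reads + 0.5) divided by a TMM-scaled library size, and 100% of the values gave whole reads within a tolerance of 0.1 read. Deposited values as log2(value + 1) were fitted here with limma 3.58.1 in R 4.3.3, with a mean-variance trend, on 4 libraries without covariates. Two-sided p-values were adjusted by Benjamini-Hochberg over all 18364 genes. The pseudocount of 1 understates fold changes of low genes, and a filter that asked for 2 libraries with a value of 1 or more removed no gene. With 2 residual and 227 prior degrees of freedom, each p rests on the spread shared across genes. Depth was 629030 to 1047021 reads, and 1 read was worth a value of 0.993 to 1.51. The floor was 3 reads per library. Alternatives were other pseudocounts, scalings, filters and thresholds, edgeR 4.0.16, DESeq2 1.42.0 and voom on recovered reads, a replicate block and leaving out each library. Lists came from general knowledge. The naming rule took from each up to 4 called genes of the largest change and a mean value over 10. For lists tied to KLFs it also took the most abundant uncalled gene. Of the marker genes this rule gave, *Ltbp1*, *Naip1*, *Thbs1*, *Fcrls* and *Lyve1* were left out of the text above. *Arg1*, *Clec10a*, *Icam2*, *Emr1*, *Fn1*, *Cr2*, *Csf3r*, *Cxcr2*, *Il5ra*, *Cd3e*, *Cd3d*, *Cd8a*, *Cd2* and *Zbtb46* were named after their values were seen. The members and lists were chosen with earlier results of these data known. The fit and the read recovery were tested on simulated data.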

Additional observations from a re-analysis of the deposited data

How the results depend on the processing

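The reported fit called 421 genes, 2 of them KLFs. Of 18 alternatives, quantile normalization called 43 genes and 0 KLFs, limma without a mean-variance trend 0 genes (1579 at an unadjusted p under 0.05, against 1854 in the reported fit) and 0 KLFs, and DESeq2 235 genes and 1 KLF. Leaving out 1 library gave 167 to 381 genes and 0 to 2 KLFs, with 167 without Rxra-KO replicate 1 and 240 without WT replicate 2. Of the calls, 57.7% were higher in Rxra-KO, against 70.4% without WT replicate 2 and 44.8% without Rxra-KO replicate 2. The other settings kept both KLF calls. Without the mean-variance trend no call of the reported fit was kept. Quantile normalization also lost, among others, *Wwp1* (adjusted p = 0.15), *Tgfb2* (0.288), *Itgb7* (0.164), *Mrc1* (0.057) and *Retnla* (0.0519). It kept *Clec10a* (0.0423) and *Icam2* (0.0456). With the replicate number as a block, 540 genes and both KLFs were called. Same-numbered libraries deviated together only weakly (Pearson's r = 0.0629 across 10049 genes, which are not independent). The labels link them by number only, and this correlation cannot decide whether they were handled together. The block rests on 1 residual degree of freedom fewer.

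Signs turned only for genes that were not called. With quantile normalization *Klf3* was -0.019 and *Fbxw7* -0.027. Leaving out 1 library at a time gave log2 fold changes of -0.22 to 0.28 for *Klf3*, -0.67 to 0.010 for *Klf7*, -0.51 to 0.042 for *Klf5*, -0.051 to 0.81 for *Klf16*, -1.07 to 0.55 for *Klf17*, -0.81 to 0.35 for *Sp2*, -0.047 to 0.64 for *Sp3*, -1.19 to 0.44 for *Sp9*, -0.022 to 0.12 for *Fbxw7*, -0.077 to 0.59 for *Cdkn1a* and -2.15 to 0.54 for *Rxrg*. The share difference of *Klf3* ran from -2.17 to 1.44 percentage points. The causes were not tested. At these depths a gene of 30 reads, such as *Klf7*, had a 95% interval of -1.07 to 0.41, so moderate changes of low KLFs were not detectable.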

Other observations

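Transcription factors of tissue macrophages that are not KLFs were also measured. Of 22 such genes, 3 were called higher and 1 lower in Rxra-KO. *Maf*, a factor of resident macrophages, had 76 and 59 reads in WT and 384 and 496 reads in Rxra-KO (log2 fold change 2.61, adjusted p = 1.69e-18). *Irf4* had 12 and 19 reads against 41 and 58 (1.54, adjusted p = 0.00756), a call lost with DESeq2 (adjusted p = 0.154) and without either Rxra-KO library (adjusted p = 0.315 and 0.151). *Gata6*, the factor that defines LPMs, had 35 and 65 reads in WT and 3 and 24 reads in Rxra-KO (-2.32, adjusted p = 5.66e-05), and was not called with DESeq2 (adjusted p = 0.0695) or without Rxra-KO replicate 1 (-1.31, adjusted p = 0.280). *Cebpd* is given above. The median of the list was 0.20, or 0.09 when genes with at most 3 reads in 1 genotype were given the smallest fold that 3 reads allow.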
